A study of Arachis hypogaea with 15 samples.

Results

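Auxin transport carrier genes are described here in peanut (Arachis hypogaea), a legume with paired A and B subgenomes, whose chromosomes 1 to 10 belong to A and 11 to 20 to B. They were taken from the annotation in the deposited expression file, as every entry whose best protein database match is named an auxin efflux carrier component (PIN), a PIN-LIKES protein (PILS) or an auxin transporter (AUX1/LAX). This gave 69 of 59878 entries. In 3 cases a locus is listed 2 times with identical coordinates and values, so the entries stand for 66 loci, namely 23 PIN, 27 PILS and 16 AUX1/LAX. The rule used names and no measured value, but it was proposed with earlier results of these data known. Entries in 2 stretches of chromosomes 5 and 17 were to be skipped, and 0 carrier genes lay there.

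RNA sequencing was done on 15 libraries in 5 groups of 3, which the series calls biological replicates. All plants were 40 days old and grown in soil in a chamber at 22 °C and 70% relative humidity with 16 h of light and 8 h of dark. Wild-type plants gave lateral leaflets, terminal leaflets, petioles and shoot apices as separate groups, and the remaining group was the shoot apex of plants labelled as a mutant with pentafoliate defects. The labels name no gene, allele or line for the mutant, say nothing of how its background relates to the wild type, and give no mutant petiole or leaflet, so genotype was compared in the apex alone.

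Auxin (indole-3-acetic acid) moves from cell to cell through membrane carriers. PIN proteins carry it out of the cell and, being placed on 1 side of it, give the flow a direction. AUX1/LAX proteins carry it into the cell. PILS proteins sit in the membrane of the endoplasmic reticulum and hold auxin away from the nucleus. At the shoot apex, local auxin maxima mark where leaf primordia and leaflets start. The numbers in the product names used below come from the best database match, often a legume protein, and a numbered AUX1/LAX name is not the Arabidopsis gene of that number.

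Expression is given as FPKM (fragments per kilobase of transcript, scaled to the library's total), so levels of different genes are compared per length. Changes were tested with limma on log2(FPKM + 1) over the 39031 genes that reached 1 FPKM in 3 or more libraries. A gene was called where its p, after Benjamini-Hochberg adjustment over all of them, was under 0.05, and each change below is on that scale with its standard error (n = 3 a group). The value of 1 fragment in short genes put the depth at 16.9 to 18.1 M fragments a library, and replicates correlated across genes at r = 0.992 to 0.993. Of the 66 loci, 35 passed the filter (11 PIN, 10 PILS, 14 AUX1/LAX). Another 31 were too low to be tested, 28 of them under 0.5 FPKM in every group mean. Short gene models were common, with 19 loci and 6 of the 35 tested having a longest transcript under 1200 bases.

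A list of 27 knotted-1-like and SBH1 loci, taken by product name as meristem markers, was mixed. In the wild-type apex against leaflets 17 were higher and 8 lower of 26 tested, beside 35.2% of all genes higher and 44.3% lower. The names do not part meristem genes from leaf genes, so the list is no measure of the meristem alone. The list's sum read 294 to 309 FPKM in the wild-type apex, 58.5 to 59.5 in the petiole and 122 to 137 in the leaflets. Its member with the largest apex excess, arahy.A8JEVC.1, read 46.9 to 51.4 FPKM in the wild-type apex, 68.4 to 70.0 in the mutant apex, 0.38 to 0.49 in the petiole and 0 to 0.03 in the leaflets, while arahy.F096Y2.1 read 3.19 to 4 in the wild-type apex and 10.49 to 14.17 in the leaflets. Summed photosynthesis genes (33 loci) read 5520 to 5864 FPKM in the wild-type apex, 6131 to 6347 in the mutant apex, 9195 to 9204 in the petiole and 21620 to 27967 in the leaflets. That sum holds loci of the stretches skipped for the carriers. One of them, arahy.BTM1YE.1 (chromosome 5), read 0.1 to 0.67 FPKM in the mutant apex and 77.05 to 80.32 in the wild-type apex. Of 32 photosynthesis loci tested, 18 were higher and 2 lower in the mutant apex, beside 23.6% and 11.8% of all genes. Each group is a whole organ, so fewer cells of a type and less RNA per cell cannot be told apart.

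In the wild type the carriers divided by organ. PIN4 was abundant everywhere and highest in the petiole. Of the importers, auxin transporter-like 5 was highest in the apex, and auxin transporter-like 3 was highest in the petiole, next in the leaflets and lowest in the apices. Summed over all loci, PIN transcripts read 132 ± 3.18 FPKM (SD, n = 3) in the wild-type apex, 167 ± 3.05 in the petiole, 78.1 ± 1.11 in the terminal leaflet and 79.3 ± 1.88 in the lateral leaflet. AUX1/LAX sums read 115 ± 2.43, 124 ± 3.81, 80.7 ± 0.486 and 83.8 ± 1.51 FPKM in the same order, and PILS sums 58.0 ± 1.37, 57.3 ± 1.34, 42.3 ± 0.655 and 41.5 ± 0.991. For all 3 families every apex and petiole library lay above every leaflet library. No test was run on these sums, and how often all genes lack such overlap was not counted. Members did not all follow the sum of their family. Of the 14 tested AUX1/LAX loci, 8 were higher and 6 lower in the wild-type apex than in the leaflets.

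Against the mean of both leaflets, 18 of the 35 tested carriers were higher and 11 lower in the wild-type apex, where 79.5% of all tested genes were called (35.2% higher, 44.3% lower). Their median change was 0.13, against -0.09 for all tested genes. By family, 4 PIN rose and 3 fell of 11, 6 PILS rose and 2 fell of 10, and 8 AUX1/LAX rose and 6 fell of 14. Of the 11 that were lower, 4 (among them arahy.07LUT5.1, arahy.N8W4DB.1 and arahy.ZYY7WD.1) passed the filter through leaflet libraries alone, so that their direction was fixed, and 7 lower calls are left without them. In the petiole 23 carriers were higher and 6 lower than in the leaflets, beside 74.7% of all genes called (30.7% higher, 44% lower), with a median of 0.23 against -0.11. The families there had 5 PIN up and 2 down, 7 PILS up and 2 down, and 11 AUX1/LAX up and 2 down. The same 4 loci are among the 6 that were lower, and arahy.WW3FN5.1 among the 23 passed only through the petiole, which leaves 22 higher and 2 lower calls whose direction the filter did not fix. Both of those 2 had transcripts under 1200 bases. With such transcripts left out, a choice made after seeing the data, 23 of 29 were higher and 1, arahy.07LUT5.1, lower. Quantile scaling moved the median of all genes in this comparison from -0.11 to 0.02 and that of the carriers from 0.23 to 0.42, with 24 higher and 6 lower.

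Between the apex and the petiole, 9 carriers were higher in the apex and 13 in the petiole, beside 54.4% of all genes called (27.3% higher and 27% lower in the apex). At least 2-fold differences were found for 3 carriers higher in the apex and for 7 higher in the petiole, of which arahy.WW3FN5.1 passed the filter through the petiole alone. The 3 organ comparisons share libraries, so their results are not independent of one another. Summed xylem and secondary wall transcripts (71 loci) were highest in the petiole, at 126 to 128 FPKM, against 71.0 to 74.4 in the wild-type apex and 92.4 to 103 in the leaflets. The list was mixed between petiole and leaflets, with 15 higher and 10 lower in the petiole of 33 tested. There 30.7% of all genes were higher and 44% lower. In the wild-type apex 2 were higher and 23 lower than in the petiole. From 3 to 10 of the 71 loci were at 0 in a group. Phloem genes (36 loci, 2 to 4 at 0 in a group) summed to 360 to 365 FPKM in the wild-type apex, 283 to 284 in the petiole and 127 to 133 in the leaflets. Between apex and petiole most of the list went against its sum, with 3 higher and 18 lower in the apex of 26 tested. The locus arahy.89XXPU.1 alone read 111 FPKM in the wild-type apex and 23.6 in the petiole. Procambium and vascular genes (16 loci, 0 to 2 at 0) summed to 192 to 196 FPKM in the wild-type apex, 99.3 to 103 in the petiole and 87.2 to 98.5 in the leaflets. This list too was mixed between petiole and leaflets, with 7 higher and 4 lower in the petiole of 11 tested. In the wild-type apex 9 were higher and 1 lower than in the petiole. The part of such cell types in the carrier levels was not tested.

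**Figure D1:**
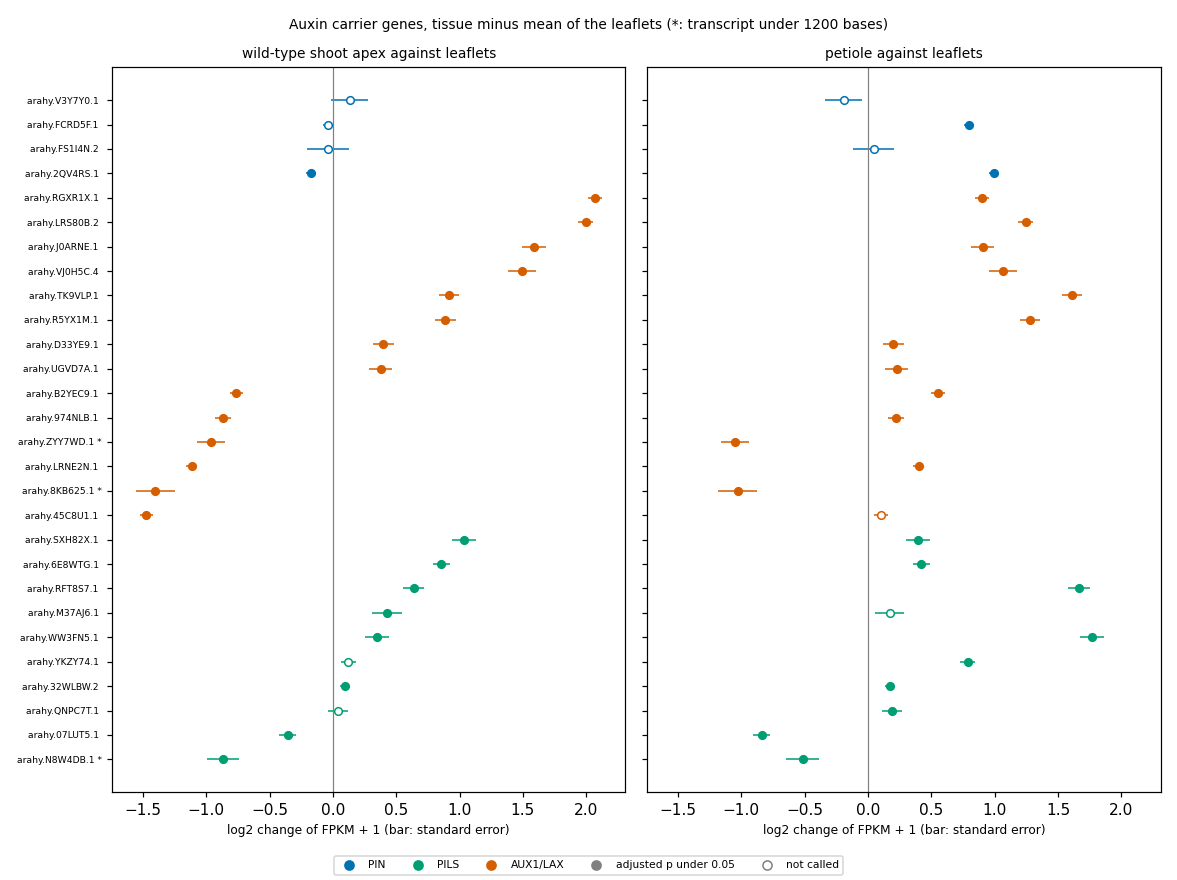
Change of 28 of the 35 tested carriers in the wild-type apex (left panel) and the petiole (right panel) against the mean of both leaflets, as log2 change of FPKM + 1 on the x axis with the standard error as a bar, 1 gene a row; filled points passed limma's adjusted p of 0.05 and a star marks a transcript under 1200 bases. The auxin transporter-like 5 genes arahy.LRS80B.2 and arahy.RGXR1X.1 lie far to the right for the apex, at 1.99 and 2.07, and the PIN4 pair lies at 0.80 and 0.99 for the petiole.

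In the mutant apex 14 of the 35 tested carriers were higher and 7 lower than in the wild-type apex, while 35.4% of all tested genes were called (23.6% higher, 11.8% lower). None of the 21 called carriers changed 2-fold on the log2(FPKM + 1) scale. The median change was 0.20, against 0.07 for all genes. Of the families, 4 PIN rose and 1 fell, 5 PILS rose and 3 fell, and 5 AUX1/LAX rose and 3 fell. The counts of risen genes hold 1 PILS locus, arahy.M37AJ6.1, whose direction the filter fixed, and are 13 and 4 without it. With the pseudocount of 1 the largest rise was in auxin transporter-like 2 and the largest fall in auxin transporter-like 5, both importers. The PIN sum read 149 ± 0.788 FPKM in the mutant against 132 ± 3.18, whereas PILS read 55.1 ± 0.191 against 58.0 ± 1.37 and AUX1/LAX 108 ± 0.531 against 115 ± 2.43. The PIN sum was thus higher and the PILS and AUX1/LAX sums lower in the mutant, and in none of the 3 families did mutant and wild-type libraries overlap. These sums were not tested, and how often all genes lack overlap was not counted. The lower PILS and AUX1/LAX sums go against their counts, in which more loci rose than fell. Means of the auxin transporter-like 5 pair, the highest importers in both apices, were 21.6 and 20.3 FPKM in the mutant against 29.1 and 30.1.

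Calls of 8 of these 21 genes were lost under at least 1 of 21 other settings, and the genes are named with their values below. The authors' deposited table, whose test is not given in the sources used here, has a q-value for 57 carrier loci in this comparison, 21 higher and 9 lower at a q under 0.05, where it calls 49.3% of all genes. Marker lists differed between the same libraries. Phloem genes (36 loci named SIEVE ELEMENT OCCLUSION) summed to 653 to 675 FPKM in the mutant apex and 360 to 365 in the wild-type apex, with 4 loci at 0 in each. The locus arahy.89XXPU.1 alone read 272 to 286 FPKM in the mutant apex and 111 in the wild-type apex. Of 26 phloem loci tested, 21 were higher and 4 lower in the mutant, beside 23.6% of all genes higher and 11.8% lower. Procambium and vascular genes (16 loci) summed to 225 to 227 against 192 to 196 FPKM, and knotted-1-like and SBH1 genes (27 loci) to 405 to 407 against 294 to 309. In the mutant 8 vascular loci were higher and 0 lower of 11 tested, and 11 knotted-1-like loci were higher and 2 lower of 26. At 0 were 2 of the vascular loci in the mutant and 1 in the wild type, and 1 and 0 of the knotted-1-like loci. Their part in the carrier changes was not tested.

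**Figure D2:**
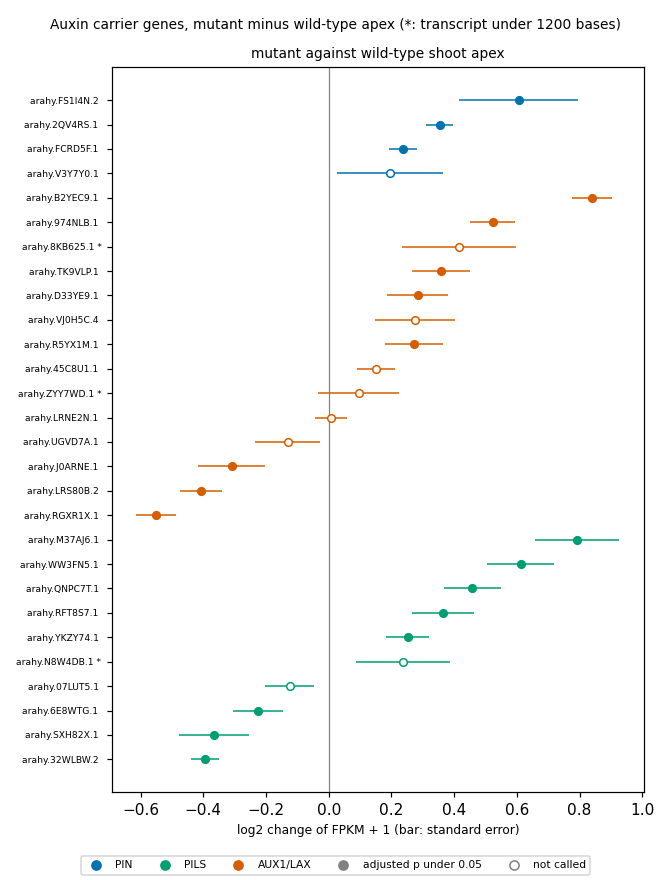
Change of 28 of the 35 tested carriers between mutant and wild-type apex, as log2 change of FPKM + 1 on the x axis with the standard error as a bar, grouped by family; filled points passed limma's adjusted p of 0.05 and a star marks a transcript under 1200 bases. Changes run from -0.55 for an auxin transporter-like 5 gene to 0.84 for an auxin transporter-like 2 gene.

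Between the leaflet types 11.4% of the tested carriers were called, a share near that of all genes, which says nothing of the carriers. Of the 35 tested, 2 were higher and 2 lower in the terminal leaflet, where 13% of all genes were called (5.59% higher, 7.37% lower), and 0 of the 11 PIN passed the test. The medians were -0.02 for the carriers and -0.04 for all genes. Under other scalings the same count of 4 split as 3 higher and 1 lower (quantile) or 1 higher and 3 lower (TPM). The count was 2 with a replicate block, whose numbers do not pair the libraries, and 1 to 3 with 1 library left out, and 1 of the 4 calls (arahy.LRNE2N.1) held in all 21 other settings. For this pair the authors' deposited table has a q-value for 52 carriers, with 8 higher and 4 lower in the terminal leaflet beside 26.8% of all genes called.

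Among the efflux carriers, PIN4, in Arabidopsis a plasma membrane exporter close in sequence to PIN3 and PIN7, gave the highest PIN level in every group. The A copy, arahy.FCRD5F.1 (chromosome 4, bases 52897656 to 52901853, minus strand), read 27.88, 31.13 and 30.39 FPKM in the wild-type apex, 55.83, 52.68 and 53.05 in the petiole, 30.01, 30.47 and 32.81 in the terminal leaflet and 29.14, 30.81 and 30.25 in the lateral leaflet. Mutant libraries read 35.33, 35.55 and 34.88 FPKM. The petiole stood apart from the wild-type apex and leaflets, which overlapped, and the mutant stood between them. Petiole exceeded leaflets by 0.80 ± 0.04 (limma adjusted p = 1e-10) and apex was below petiole, at -0.83 ± 0.05 (limma adjusted p = 1.13e-09), while apex against leaflets was -0.04 ± 0.04 (limma adjusted p = 0.405). The mutant was higher by 0.24 ± 0.05 (limma adjusted p = 0.00106).

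The B copy, arahy.2QV4RS.1 (chromosome 14, bases 40338987 to 40343406, plus strand), repeated that order at a lower level. It read 17.15, 16.04 and 17.31 FPKM in the wild-type apex, 21.31, 22.47 and 21.54 in the mutant, 39.62, 38.95 and 38.29 in the petiole, 19.59, 19.52 and 17.84 in the terminal leaflet and 19.26, 18.92 and 19.53 in the lateral leaflet. All 3 mutant libraries lay above the wild-type apex and both leaflets, and below the petiole. It was the PIN of at least 3 FPKM with the largest rise in the mutant, at 0.35 ± 0.04 (limma adjusted p = 2.3e-05). Petiole against leaflets was 0.99 ± 0.04 (limma adjusted p = 4.46e-12) and apex against petiole -1.16 ± 0.04 (limma adjusted p = 1.81e-11). Its apex deficit to the leaflets, -0.17 ± 0.04 (limma adjusted p = 0.00066), was lost under TPM scaling (limma adjusted p = 0.0745). This and the pairs below were matched as likely A and B copies by product name and chromosome after their values were seen. How reads shared by near-identical copies were counted is not given in the sources used here, so the split between copies is uncertain.

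PIN8 and PIN5 belong to the short PIN proteins of the endoplasmic reticulum. PIN8 of chromosome 20, arahy.FS1I4N.2, read 1.73, 1.95 and 1.78 FPKM in the mutant apex and 0.9, 0.91 and 0.75 in the wild-type apex. That is a rise of 0.61 ± 0.19 (limma adjusted p = 0.0224), lost without mutant replicate 2 (limma adjusted p = 0.0651), without wild-type apex replicate 3 (limma adjusted p = 0.0657) or with a pseudocount of 0.1 (limma adjusted p = 0.0635). Its chromosome 10 copy, arahy.V3Y7Y0.1, read 1.65, 1.4 and 1.45 FPKM against 1.1, 1.34 and 1.11, a difference of 0.20 ± 0.17 (limma adjusted p = 0.402). In the leaflets the replicates of both copies spread widely, from 0.26 to 1.7 FPKM for chromosome 20 and 0.68 to 1.44 for chromosome 10.

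The PIN5 pair did not pass the filter. Its B copy on chromosome 14 had a mean of 1.05 FPKM in the mutant and 0.55 in the wild-type apex, and its A copy, arahy.K2GLG1.1, 0.487 and 0.45. Both were at or near 0 in the petiole and leaflets, where no group mean exceeded 0.0133 FPKM. Genes named PIN2, in Arabidopsis the root carrier of gravity responses, reached at most 0.03 FPKM in any library, and a PIN6-like fragment reached 0.417 in the mutant mean.

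**Figure D3:**
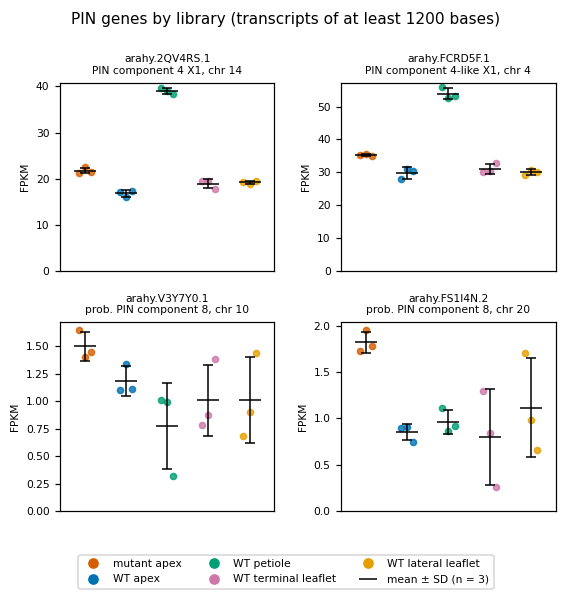
FPKM of the PIN4 and PIN8 genes, 1 panel a gene, 1 point a library, with the mean and SD of the 3 libraries of each group. The PIN4 pair peaks in the petiole at 39.0 and 53.9 FPKM.

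Auxin importers of the AUX1/LAX family take auxin into cells and help hold it where exporters send it. The genes named auxin transporter-like 5 were the highest importers in both apices. The A copy, arahy.LRS80B.2 (chromosome 3, bases 5784351 to 5786677, minus strand), read 27.34, 28.78 and 31.04 FPKM in the wild-type apex, 20.51, 22.5 and 21.93 in the mutant, 17.57, 15.64 and 17.4 in the petiole, 6.61, 6.78 and 5.77 in the terminal leaflet and 7.13, 6.47 and 6.51 in the lateral leaflet. The mutant libraries lay between the wild-type apex and the petiole and met neither. The mutant change was -0.41 ± 0.07 (limma adjusted p = 0.000318), the apex excess over leaflets 1.99 ± 0.06 (limma adjusted p = 1.32e-13) and that over the petiole 0.75 ± 0.07 (limma adjusted p = 2.6e-07).

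Its B copy, arahy.RGXR1X.1 (chromosome 13, bases 8939198 to 8941561, plus strand), fell most of all tested carriers in the mutant. It read 21.74, 19.5 and 19.56 FPKM there and 29.85, 29.11 and 31.38 in the wild-type apex. Petiole libraries read 13.11, 13.72 and 11.72 FPKM, the terminal leaflet 5.58, 5.98 and 6.32 and the lateral leaflet 7.18, 6.9 and 6.61. The mutant change was -0.55 ± 0.06 (limma adjusted p = 1.29e-05). Apex exceeded leaflets by 2.07 ± 0.06 (limma adjusted p = 4.4e-14) and petiole by 1.17 ± 0.06 (limma adjusted p = 1.07e-09). Lateral libraries were all above terminal ones, but the difference of -0.18 ± 0.06 did not pass (limma adjusted p = 0.0776).

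The importers named auxin transporter-like 2 went the other way in the mutant. The B copy, arahy.B2YEC9.1 (chromosome 12, bases 103589710 to 103599931, minus strand), read 9.94, 10.03 and 8.42 FPKM in the mutant and 4.72, 4.57 and 5.22 in the wild-type apex. It read 13.44, 13.6 and 13.53 FPKM in the petiole, 9.04, 9.31 and 9.52 in the terminal leaflet and 8.56, 8.28 and 8.67 in the lateral leaflet. The wild-type apex was thus the lowest of the groups, and the mutant libraries overlapped the leaflets. The mutant change of 0.84 ± 0.06 (limma adjusted p = 1.29e-07) was the largest among the tested carriers with the pseudocount of 1. With a pseudocount of 0.1 the low genes arahy.M37AJ6.1 (1.53), arahy.WW3FN5.1 (1.49) and arahy.FS1I4N.2 (1.01) changed more than its 0.95, the last without passing. Apex against leaflets was -0.76 ± 0.05 (limma adjusted p = 4.94e-09) and apex against petiole -1.32 ± 0.06 (limma adjusted p = 2.4e-10).

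The A copy (chromosome 2, bases 88840556 to 88850004, plus strand), also rose in the mutant, by 0.52 ± 0.07 (limma adjusted p = 5.98e-05). It read 5.92, 5.57 and 6.47 FPKM in the mutant against 4.35, 3.41 and 3.85 in the wild-type apex, and 9.5, 9.56 and 9.02 in the petiole, 8.61, 8.22 and 8.28 in the terminal leaflet and 7.28, 7.87 and 7.11 in the lateral leaflet. Here the mutant stayed below every leaflet library. A second locus of this name, arahy.TK9VLP.1 (chromosome 14), differed in its organ pattern, with 2.81, 3.84 and 3.01 FPKM in the wild-type apex, 4.13, 4.62 and 4.39 in the mutant, 6.16, 5.41 and 5.85 in the petiole, 1.24, 1.38 and 1.11 in the terminal leaflet and 1.09, 1.38 and 1.17 in the lateral leaflet. It was lowest in the leaflets, and petiole exceeded leaflets by 1.61 ± 0.08 (limma adjusted p = 1.09e-10), while the mutant change was 0.36 ± 0.09 (limma adjusted p = 0.0082). The locus named auxin transporter-like 4, arahy.R5YX1M.1, had the same organ order at 0.31 to 2.69 FPKM. Its mutant call, 0.27 ± 0.09 (limma adjusted p = 0.0357), was lost in 7 of 21 other settings, with limma adjusted p up to 0.161.

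Auxin transporter-like 3 was the main importer of petiole and leaflets. The A copy, arahy.LRNE2N.1 (chromosome 8, bases 11425215 to 11428663, minus strand), read 28.15, 29.25 and 26.93 FPKM in the petiole, 20, 18.5 and 19.69 in the terminal leaflet, 22.95, 22.75 and 22.99 in the lateral leaflet and 9.52, 9.58 and 8.49 in the wild-type apex. Mutant libraries read 8.79, 9.38 and 9.53 FPKM and overlapped the wild-type apex, with a difference of 0.01 ± 0.05 (limma adjusted p = 0.942). Terminal leaflets were below lateral ones without overlap, by -0.23 ± 0.05 (limma adjusted p = 0.00833), the only leaflet call of a carrier that held in all 21 other settings. Apex against leaflets was -1.12 ± 0.04 (limma adjusted p = 5.27e-12) and against petiole -1.51 ± 0.05 (limma adjusted p = 6.82e-12).

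Its B copy, arahy.45C8U1.1 (chromosome 17, bases 128028197 to 128032219, minus strand), read 13.6, 14.08 and 12.64 FPKM in the petiole, 11.71, 13.43 and 11.72 in the terminal leaflet, 12.6, 12.57 and 12.76 in the lateral leaflet, 4.06, 3.58 and 3.9 in the wild-type apex and 4.43, 4.43 and 4.27 in the mutant. Petiole and leaflets overlapped, and both stood far above the apices. The apex deficit was -1.47 ± 0.05 to the leaflets (limma adjusted p = 1.35e-12) and -1.57 ± 0.06 to the petiole (limma adjusted p = 2.56e-11). The leaflet difference seen in the A copy was -0.04 ± 0.06 here (limma adjusted p = 0.742).

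Auxin transporter-like 1 had likely copies on chromosomes 10 and 20 and on 7 and 17. On chromosome 20, arahy.J0ARNE.1 read 11.37, 10.89 and 9.46 FPKM in the wild-type apex, 8.38, 8.29 and 8.29 in the mutant, 6.83, 6.83 and 5.07 in the petiole, 3.04, 3.49 and 3.75 in the terminal leaflet and 1.95, 2.59 and 2.52 in the lateral leaflet. The groups did not overlap. Apex against leaflets was 1.59 ± 0.09 (limma adjusted p = 4.57e-10) and apex against petiole 0.68 ± 0.11 (limma adjusted p = 7.26e-05). The terminal leaflet exceeded the lateral by 0.40 ± 0.11 (limma adjusted p = 0.0217), lost without terminal replicate 2 (limma adjusted p = 0.0639) or 3 (limma adjusted p = 0.0867) or without lateral replicate 1 (limma adjusted p = 0.0968). The mutant change of -0.31 ± 0.11 (limma adjusted p = 0.0362) was lost in 7 of 21 settings, with limma adjusted p up to 0.123.

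On chromosome 10, arahy.VJ0H5C.4 read 6.88, 7.21 and 8.39 FPKM in the wild-type apex and 8.77, 10.18 and 8.86 in the mutant, 0.28 ± 0.13 higher, which did not pass (limma adjusted p = 0.107). It read 5.36, 4.55 and 6.05 FPKM in the petiole, 2.11, 2.91 and 2.05 in the terminal leaflet and 1.64, 1.37 and 2.18 in the lateral leaflet, and petiole exceeded leaflets by 1.07 ± 0.11 (limma adjusted p = 4.57e-07). The mutant values of the copies lay on opposite sides of the wild type. The chromosome 10 copy made up 51.1 to 55.1% of the pair in the mutant and 37.7 to 47.0% in the wild-type apex. The pair of chromosomes 7 and 17 differed less over the organs, at 2.7 to 5.16 FPKM for arahy.UGVD7A.1 and 3.25 to 7.79 for arahy.D33YE9.1. Their apex excess over leaflets was 0.38 ± 0.09 (limma adjusted p = 0.00138) and 0.40 ± 0.08 (limma adjusted p = 0.000532). The latter's rise in the mutant, 0.28 ± 0.10 (limma adjusted p = 0.0349), was lost in 5 of 21 settings, with limma adjusted p up to 0.163. Short models of auxin transporter-like 1 on chromosomes 7 and 20, arahy.8KB625.1 and arahy.ZYY7WD.1, were highest in the leaflets at 1.53 to 4.82 FPKM, against 0.23 to 1.3 elsewhere. The second passed the filter through leaflet libraries alone, which fixed that order. Their best matches had E-values (lower for a closer match) of 1.4e-06 and 8.1e-18, against 2.8e-159 or less for the longer tested importers. Their place in the family is thus uncertain.

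**Figure D4:**
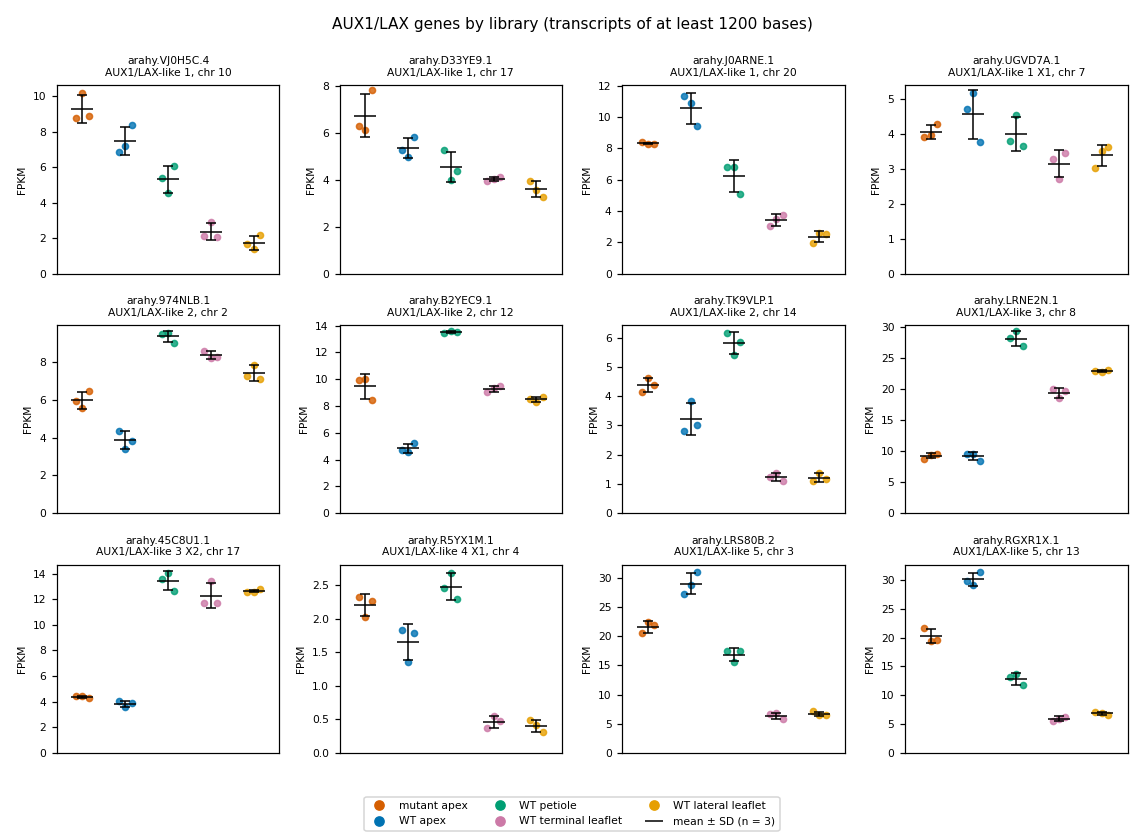
FPKM of the AUX1/LAX genes with a transcript of at least 1200 bases that passed the filter, 1 panel a gene, 1 point a library, with the mean and SD of the 3 libraries of each group. The auxin transporter-like 5 pair is highest in the wild-type apex at 29.1 and 30.1 FPKM, the auxin transporter-like 3 pair in the petiole, and the mutant mean of arahy.B2YEC9.1 is 9.46 against 4.84 in the wild-type apex.

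PILS genes were lower than the main PIN and AUX1/LAX genes, and their highest group mean was 15.1 FPKM. That was PIN-LIKES 2 of chromosome 7, arahy.SXH82X.1, with 16.16, 15.27 and 14 FPKM in the wild-type apex, 10.38, 12.58 and 11.67 in the mutant, 8.18, 10.44 and 9.51 in the petiole, 5.97, 7.33 and 6.36 in the terminal leaflet and 6.69, 8.75 and 6.44 in the lateral leaflet. Wild-type apex libraries lay above all others. Apex against leaflets was 1.03 ± 0.10 (limma adjusted p = 1.1e-07). The mutant change of -0.37 ± 0.11 (limma adjusted p = 0.019) was lost without mutant replicate 1 (limma adjusted p = 0.0823) or wild-type apex replicate 1 (limma adjusted p = 0.0695).

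Its likely copy on chromosome 18 read 12.73, 13.66 and 14.84 FPKM in the wild-type apex and 12.73, 10.68 and 11.45 in the mutant, which met at 1 value. It read 9.3 to 10.34 FPKM in the petiole and 6.2 to 7.76 in the leaflets. Apex exceeded leaflets by 0.86 ± 0.07 (limma adjusted p = 2.09e-08), while the mutant change of -0.23 ± 0.08 (limma adjusted p = 0.0399) was lost in 5 of 21 settings, with limma adjusted p up to 0.156.

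PIN-LIKES 3 was the largest subgroup of the PILS names, and most of its loci were low. The main locus, arahy.32WLBW.2 (chromosome 15, bases 3290127 to 3293851, minus strand), was nearly even over the wild-type organs and lower in the mutant apex. It read 14.85, 13.96 and 13.68 FPKM in the wild-type apex, 10.23, 10.72 and 10.66 in the mutant, 15.37, 14.46 and 15.27 in the petiole, 14.27, 14.03 and 13.57 in the terminal leaflet and 12.79, 12.35 and 12.44 in the lateral leaflet. Every mutant library lay below every wild-type library of any organ. The mutant change was -0.39 ± 0.04 (limma adjusted p = 9.05e-06). The terminal leaflet exceeded the lateral by 0.14 ± 0.04 (limma adjusted p = 0.0436), a call lost in 13 of 21 settings with limma adjusted p up to 0.129, although the leaflet libraries did not overlap.

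The 4 other PIN-LIKES 3 loci that were tested were low. The locus arahy.M37AJ6.1 (chromosome 19) read 1.81, 1.72 and 1.5 FPKM in the mutant, 0.91, 0.53 and 0.26 in the wild-type apex and at most 0.47 elsewhere. It passed the filter through the mutant libraries alone, so its change of 0.79 ± 0.14 (limma adjusted p = 0.000397) had to be in that direction. The loci arahy.WW3FN5.1 (chromosome 1) and arahy.RFT8S7.1 (chromosome 20), not matched as copies of one another, were highest in the petiole. The first read 2.57, 2.39 and 2.72 FPKM in the petiole, 0.38, 0.12 and 0.51 in the wild-type apex, 1.14, 0.89 and 1.06 in the mutant and at most 0.16 in the leaflets. The second read 2.28, 2.25 and 2.9 FPKM, 0.83, 0.7 and 0.57, 1.22, 1.28 and 1.06, and at most 0.16 in the same order. For both the mutant lay between wild-type apex and petiole without overlap, but the values are low. Those of the wild-type apex rest on about 3 to 13 fragments a library for the first and 15 to 21 for the second. The first passed the filter through the petiole alone, which fixed its petiole excess. Petiole against leaflets was 1.77 ± 0.09 (limma adjusted p = 2e-10) and 1.67 ± 0.09 (limma adjusted p = 1.47e-10). The mutant changes were 0.61 ± 0.11 (limma adjusted p = 0.000507) and 0.36 ± 0.10 (limma adjusted p = 0.0103), and the second was lost with a pseudocount of 0.1 (limma adjusted p = 0.121).

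PIN-LIKES 6 rose in the mutant in both copies. On chromosome 14, arahy.QNPC7T.1 read 5.82, 5.74 and 5.94 FPKM in the mutant, 4.02, 4.06 and 3.85 in the wild-type apex, 4.54, 4.74 and 4.28 in the petiole, 4.87, 3.55 and 4 in the terminal leaflet and 3.1, 4.04 and 3.62 in the lateral leaflet. The mutant stood above all other libraries, by 0.46 ± 0.09 over the wild-type apex (limma adjusted p = 0.00125). On chromosome 4, arahy.YKZY74.1 read 7.52, 7.88 and 7.83 FPKM in the mutant, 6.22, 6.44 and 6.37 in the wild-type apex, 10.06, 10.45 and 11.48 in the petiole, 4.72, 5.46 and 5.62 in the terminal leaflet and 6.73, 5.84 and 6.29 in the lateral leaflet. There the petiole was highest, by 0.79 ± 0.06 over the leaflets (limma adjusted p = 1.11e-08). Its mutant change of 0.25 ± 0.07 (limma adjusted p = 0.00976) was lost under quantile scaling (limma adjusted p = 0.0544). Its terminal leaflet deficit of -0.22 ± 0.07 (limma adjusted p = 0.0465) was lost in 14 of 21 settings with limma adjusted p up to 0.181. A PIN-LIKES 7-like locus, arahy.07LUT5.1, was lowest in the petiole, at 0.13 to 0.25 FPKM against 1.01 to 1.43 in the leaflets. It passed the filter through leaflet libraries alone, which fixed its leaflet excess, and its petiole values rest on about 4 to 9 fragments.

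**Figure D5:**
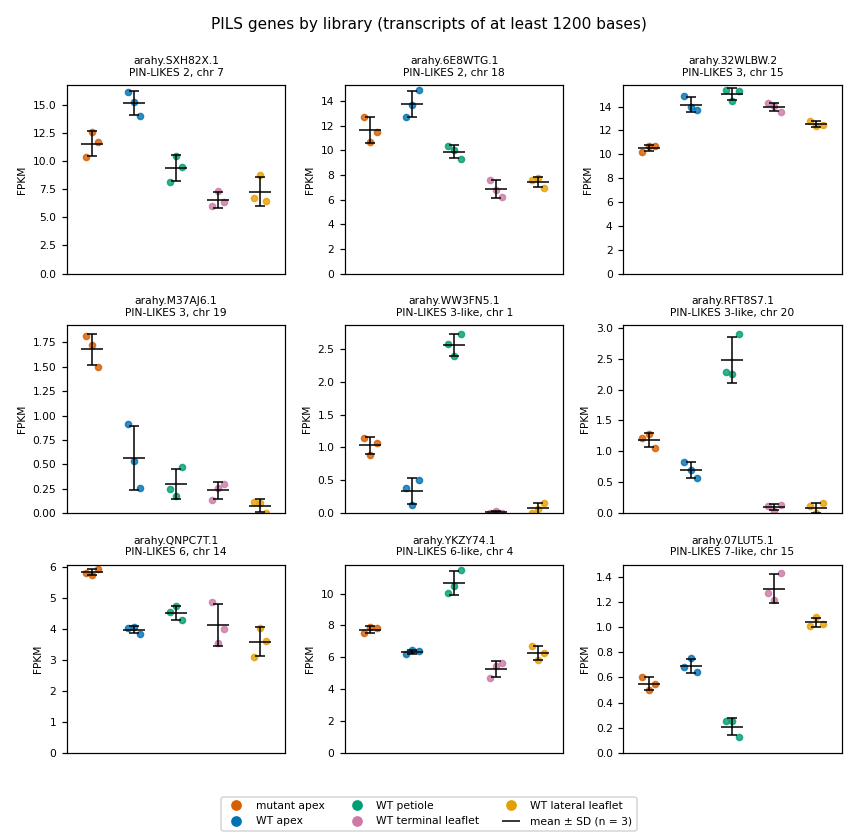
FPKM of the 9 PILS genes with a transcript of at least 1200 bases that passed the filter, 1 panel a gene, 1 point a library, with the mean and SD of the 3 libraries of each group. Both PIN-LIKES 2 genes are highest in the wild-type apex, and arahy.32WLBW.2 reads 10.5 FPKM in the mutant apex against 12.5 or more in the wild-type organs.

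Other genes of auxin transport and response were taken from lists of product names, chosen with earlier results of these data known. Their counts in the mutant stand beside 35.4% of all tested genes called (23.6% higher, 11.8% lower), and a share near that says nothing of the list. ABCB transporters move auxin without the polarity of PIN, and 4 of 9 tested rose and 0 fell in the mutant. The ABCB19-like gene arahy.WT01JD.1 stepped down from apex to petiole to leaflets, at 91.72 to 95.37 FPKM in the wild-type apex, 38.37 to 41.5 in the petiole and 3.8 to 5.54 in the leaflets. GNOM, which returns PIN to the membrane, and BIG, which auxin transport needs, numbered 11 tested, of which 0 rose and 6 fell in the mutant, while 10 rose and 0 fell in wild-type apex against leaflets, where 35.2% of all genes were higher and 44.3% lower. A GNOM-like gene, arahy.BDZ3HX.1, read 3.17, 2.88 and 3.13 FPKM in the mutant and 5.52, 4.95 and 5.28 in the wild-type apex, a change of -0.62 ± 0.08 (limma adjusted p = 5.12e-05).

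Kinases that phosphorylate PIN (PINOID, WAG and D6PK types) numbered 22 tested, with 1 higher and 5 lower in the mutant. The lower ones include the D6PKL2-like gene arahy.8VG426.1, which lies in the skipped stretch of chromosome 5 and read 1.35, 1.03 and 1.33 FPKM in the mutant and 4.77, 3.85 and 4.1 in the wild-type apex. NPY proteins, which act with these kinases, had 1 higher and 2 lower of 10. IAA synthesis genes had 4 higher and 5 lower of 19, conjugating GH3 enzymes 5 and 8 of 17, and the DAO oxidases 0 and 1 of 2. For these and the following lists the share of all genes is again 23.6% higher and 11.8% lower. Receptors of the TIR1 and AFB type had 6 higher and 0 lower of 10, Aux/IAA repressors 20 and 4 of 39, and auxin response factors 16 and 14 of 61. The median change of these lists in the mutant ran from -0.50 for the oxidases to 0.21 for Aux/IAA, beside 0.07 for all tested genes.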

How the data were processed

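RNA of 15 libraries was sequenced, with total RNA reverse transcribed from random primers per the labels' protocols. The authors deposited FPKM values per gene, per the file headers, to 2 decimals, with gene identifiers and chromosomes of the Tifrunner peanut assembly in its first version, and coordinates are the file's own. Per the submitters' processing notes the build was TAIR10, which is Arabidopsis. The aligner and the quantification tool: not given in the sources used here. Log2 ratios and p-values with q-values of group comparisons were also deposited by the authors, per the file headers, and serve only where the authors' deposited table is named. The leaflet columns were matched to libraries by the tissue in their labels. Without counts, tests used limma 3.58.1 in R 4.3.3 on log2(FPKM + 1), with 1 mean per group over all 15 libraries and trended, robust variances; the script was tested on simulated data. The log2(FPKM + 1) scale understates changes of low genes. Adjustment ran over all 39031 tested entries, and counts use 1 entry per locus (38043 tested). Depth, estimated from the file at 16.9 to 18.1 M fragments a library, puts about 200 to 1078 fragments a library behind arahy.LRS80B.2 and 2 to 42 behind the short model arahy.8KB625.1. Nothing in the labels says the replicates came from separate plants beyond the word biological, so p-values measure the spread between these libraries. Genes with values in every library were the highest of each family in each group and, in each comparison, the called carriers at 3 FPKM or more that changed most, 5 in each direction. Others named were chosen after their values were seen. Some PIN loci are not reported here by name, although counts and sums include them. The carrier genes and all lists were chosen with earlier results of these data known. Replicate numbers did not pair libraries: deviations of same-numbered libraries correlated at -0.0551 to 0.0503. Alternatives were another pseudocount, no filter, quantile and TPM scaling, non-robust variances, a replicate block, each library left out, and only transcripts of 1200 bases or more. No sequences of these genes were used here.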

Additional observations from a re-analysis of the deposited data

How the results depend on the processing

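Recounts of the called carriers under 22 other settings stayed within 1.5 times the reported count in 101 cases, and left it in 9, all between leaflets. Single calls that held under all 21 settings tried for them numbered 13 of 21 in the mutant, 1 of 4 between leaflets, 26 of 29, 24 of 29 and 21 of 22 in the organ comparisons, and no called carrier changed direction in any of them. Leaving out 1 library at a time gave 17 to 23 calls in the mutant, 1 to 3 between leaflets, 27 to 30 for apex against leaflets, 26 to 29 for petiole against leaflets and 21 to 24 for apex against petiole. With a replicate block, whose numbers do not pair the libraries, the leaflet count was 2 in place of 4 and the mutant count 20 in place of 21. Quantile scaling split the mutant calls into 11 higher and 8 lower, in place of 14 and 7. Without the filter 66 loci were tested and 36 differed between apex and leaflets, in place of 29. Genes near 1 FPKM rest on few fragments, and a non-call there says only that no difference was detectable at this depth. The cause of these shifts was not tested.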

Other observations

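Outside the carriers chosen by name, 7 loci with uncharacterized products carry a carrier orthology term in the deposited annotation, 1 of them among terms for other proteins, and all lie on the B subgenome. These were picked out after their values were seen. The highest, arahy.IJIU71.1 (chromosome 20, with the orthology of AUX1/LAX), read 1.95, 2.33 and 2.11 FPKM in the wild-type apex, 3.03, 3.13 and 3.14 in the mutant apex, 2.72, 2.58 and 2.61 in the petiole, 10.93, 8.61 and 8.57 in the terminal leaflet and 10.79, 11.06 and 11.95 in the lateral leaflet. Its leaflet libraries stood above all others, as did those of the short auxin transporter-like 1 models. Of those models, arahy.ZYY7WD.1 passed the filter through leaflet libraries alone, which fixed its order. The next, arahy.J0955H.1 (chromosome 11, with the orthology of PIN), read 4.64 to 5.75 FPKM in the leaflets and 2.35 to 4.24 in the other groups.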
